A study of Rattus norvegicus with 6 samples.

Results

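The 10 circadian clock genes Arntl, Clock, Npas2, Per1, Per2, Per3, Cry1, Cry2, Nr1d1 and Dbp were followed by their symbols in a table of 17089 genes, and all 10 were found. The samples were primary cultures of neonatal rat ventricular myocytes, heart muscle cells from Sprague Dawley pups aged between postnatal days 1 and 3. On the day of isolation 3 cultures received the adenovirus Ad-Tbx18-IRES-GFP, which carries the gene for the T-box factor TBX18 of the developing sinus node, with GFP behind an internal ribosome entry site. The 3 reference cultures received Ad-GFP, so both groups carried an adenovirus and GFP. The column headers of all 6 libraries carry the words unpace and Control, a condition that both groups share. All were kept in 10% serum for the first 2 days and in 2% serum from day 3, and RNA was taken on day 4 after gene transfer, in a study of how Tbx18 changes ventricular myocytes into pacemaker-like cells. The promoter that drives the transgene, the time of day at harvest and whether replicates were separate isolations are not stated in the labels, so the p-values reflect a spread among libraries that could be technical.

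The clock is a feedback loop that most cells of the body run. CLOCK or its relative NPAS2 pairs with the Arntl product (BMAL1) and switches on genes with E-boxes, among them the Per and Cry genes, whose proteins return to block that pair. A side loop runs through Nr1d1 (REV-ERB alpha), which represses Arntl at ROR elements, and output passes through Dbp, an activator at D-boxes whose repressing counterpart is Nfil3. In heart muscle cells this clock is known for daily rhythms in metabolism and excitability.

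Npas2, Per2 and Dbp were lower in Tbx18 than in GFP cultures, by 1.93-fold, 1.47-fold and 1.94-fold, and in each the libraries of the groups did not overlap. The other 7 clock genes did not pass the test, and their groups overlapped. Since each culture was sampled at 1 harvest time, a change of level and a shift of phase cannot be told apart, and in bulk RNA fewer cells of a type and less RNA per cell cannot be told apart either.

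The promoter windows of the 3 genes that were lower are shown because clock factors act at promoter elements. A window each of Arntl and Nr1d1 is shown as well, because each holds a match to a clock element. All are RefSeq windows of 300 bases on the build GRCr8, from 250 bases before to 50 bases after an annotated start. They are written 5′ to 3′ in the direction of the gene, with capitals for every match to a searched element. The Npas2 window lies at chr9:48959315-48959614 on the plus strand. The Per2 window lies at chr9:99496944-99497243 on the minus strand. The Dbp window lies at chr1:105312006-105312305 on the plus strand. The Arntl window lies at chr1:176766078-176766377 on the plus strand. The Nr1d1 window lies at chr10:84229405-84229704 on the minus strand.
Npas2: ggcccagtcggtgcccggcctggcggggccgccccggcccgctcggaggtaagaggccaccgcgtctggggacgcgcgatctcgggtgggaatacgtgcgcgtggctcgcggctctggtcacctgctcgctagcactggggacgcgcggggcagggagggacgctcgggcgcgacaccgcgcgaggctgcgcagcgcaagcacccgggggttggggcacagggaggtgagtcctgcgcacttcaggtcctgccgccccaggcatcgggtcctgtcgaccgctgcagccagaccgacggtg
Per2: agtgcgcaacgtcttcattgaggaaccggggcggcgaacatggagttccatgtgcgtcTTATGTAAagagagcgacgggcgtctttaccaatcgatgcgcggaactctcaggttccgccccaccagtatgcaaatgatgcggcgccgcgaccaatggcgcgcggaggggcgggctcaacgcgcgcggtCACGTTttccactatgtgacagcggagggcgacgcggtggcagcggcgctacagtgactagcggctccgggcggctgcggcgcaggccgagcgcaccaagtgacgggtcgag
Dbp: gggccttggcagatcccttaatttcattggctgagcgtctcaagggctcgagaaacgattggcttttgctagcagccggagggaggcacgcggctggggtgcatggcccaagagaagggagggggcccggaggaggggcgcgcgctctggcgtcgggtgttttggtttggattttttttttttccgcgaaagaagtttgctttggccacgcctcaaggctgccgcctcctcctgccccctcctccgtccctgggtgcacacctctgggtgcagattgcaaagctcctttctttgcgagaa
Arntl: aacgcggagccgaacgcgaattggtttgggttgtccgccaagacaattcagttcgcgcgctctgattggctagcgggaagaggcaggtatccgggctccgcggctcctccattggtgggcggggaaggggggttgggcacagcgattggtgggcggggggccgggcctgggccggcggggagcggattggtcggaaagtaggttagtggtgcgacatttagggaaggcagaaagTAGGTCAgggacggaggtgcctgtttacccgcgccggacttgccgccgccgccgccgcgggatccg
Nr1d1: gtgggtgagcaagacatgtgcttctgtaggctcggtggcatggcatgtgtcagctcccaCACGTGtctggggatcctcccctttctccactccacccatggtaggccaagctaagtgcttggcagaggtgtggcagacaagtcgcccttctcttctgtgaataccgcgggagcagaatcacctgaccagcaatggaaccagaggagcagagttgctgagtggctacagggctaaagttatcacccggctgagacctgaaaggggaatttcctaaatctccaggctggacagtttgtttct

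Of the 10 genes, 9 had a window, Cry1 being the one without, and Clock and Nr1d1 had more than 1 annotated start. The searches took both strands, and in these windows no match overlapped another. The Per2 window held the D-box TTATGTAA, starting 192 bases before the annotated start, and the E-prime box CACGTT, a variant of the E-box, 62 bases before it. The Arntl window held the ROR element core TNGGTCA 16 bases before the start, and the Nr1d1 window shown held the E-box CACGTG 191 bases before the start. The E-prime box also matched in Cry2 and in the other Nr1d1 window, neither of which is shown. The windows of Npas2, Dbp, Clock, Per1 and Per3 held no match to any searched element. No window of these 9 genes held the cAMP response element TGACGTCA or the T-box element AGGTGTGA. Among all 33469 RefSeq promoter windows, 6.42% held the E-box, 4.83% the E-prime box, 0.893% the D-box, 11.1% the ROR element core, 1.83% the cAMP response element and 1.10% the T-box element. These matches describe letters in the windows only.

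The libraries held between 17074483 and 19800300 gene-assigned reads, recovered from the deposited normalized counts. Tbx18 was read at 6004, 6236 and 5937 normalized counts in Tbx18 cultures and at 312, 268 and 296 in GFP cultures, so every library matched its label. The 8 heart muscle markers summed to between 358342 and 374236 normalized counts in Tbx18 libraries and between 598289 and 677160 in GFP libraries. The 8 fibroblast markers summed to between 514008 and 597956 in Tbx18 libraries and between 239314 and 278871 in GFP libraries. Myh6 was the largest part of the heart muscle sum, at a mean of 219223 in Tbx18 and 291846 in GFP, and was not called. Col1a1 and Col3a1 were the largest parts of the fibroblast sum, with means of 371165 and 147143 in Tbx18 and 198103 and 47780 in GFP. None of the markers looked up for 5 cell types was at 0 in every library. In the other 3 types, smooth muscle and pericyte markers summed to between 124702 and 136218 in Tbx18 libraries and between 84026 and 121707 in GFP libraries, endothelial markers to between 2259 and 2437 in Tbx18 and between 1575 and 2536 in GFP, and leukocyte markers to between 1377 and 1820 in Tbx18 and between 1064 and 1894 in GFP. Of the 8 markers of each type, limma called 0 higher and 6 lower for heart muscle, 7 higher and 0 lower for fibroblasts, 4 and 2 for smooth muscle and pericytes, 5 and 1 for endothelium, and 3 and 0 for leukocytes. Whether the cell makeup differed, and its part in the clock gene values, was not tested.

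Of the 3 genes of the activating arm, Npas2 passed the test. Npas2, which can take the place of CLOCK beside BMAL1, was at 91.1, 68.6 and 73.7 normalized counts in the Tbx18 libraries and at 149, 172 and 130 in the GFP libraries. Every Tbx18 library was below every GFP library. The log2 fold change was -0.94 (SE 0.18, limma adjusted p = 0.00214), from 67 to 99 recovered reads in Tbx18 and 113 to 140 in GFP. Clock, which encodes the usual partner of BMAL1, was at 217, 209 and 256 counts in Tbx18 libraries and at 312, 141 and 243 in GFP libraries. The GFP libraries enclosed all 3 Tbx18 libraries, and the log2 fold change of 0.04 had a 95% interval from -0.52 to 0.61 (limma adjusted p = 0.906). That interval is too wide to show that Clock did not differ. Arntl, which encodes BMAL1, was at 513, 600.4 and 506 counts in Tbx18 libraries and at 573, 374 and 411 in GFP libraries. GFP replicate 1 lay among the Tbx18 libraries and the other two GFP libraries below them. The log2 fold change of 0.27 did not pass the test (limma adjusted p = 0.187, 95% interval -0.08 to 0.63); without GFP replicate 1 it was 0.46 and was called (limma adjusted p = 0.00812). With every library scaled to equal recovered reads, which put the median of all genes at 0.27 instead of 0.01, it was 0.54 and called (limma adjusted p = 0.0262), which is 0.27 relative to the median of all genes.

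**Figure D1:**
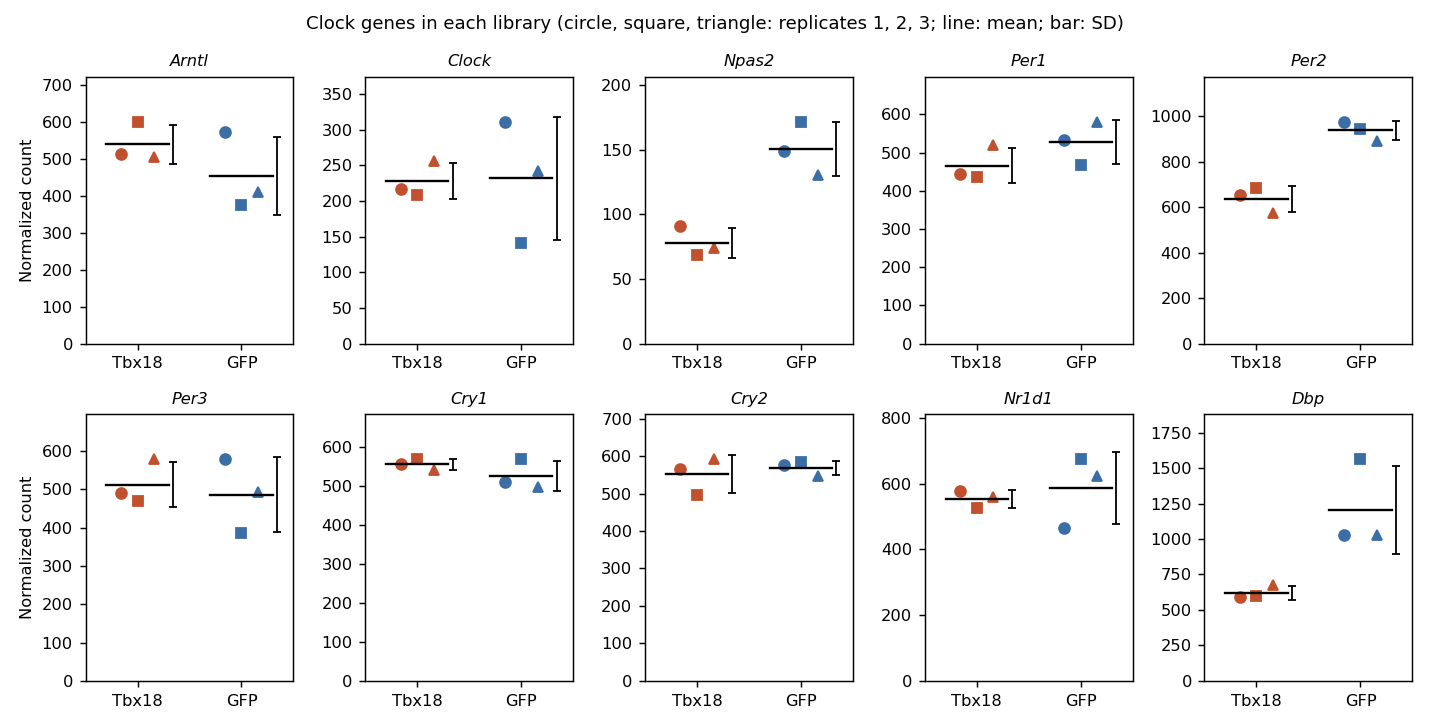
Normalized count of each clock gene in every library, with Tbx18 on the left of each panel and GFP on the right, symbols for replicates 1 to 3, a line at the mean and a bar for the SD over 3 libraries. Npas2, Per2 and Dbp show Tbx18 libraries below all GFP libraries, at most 91.1, 684 and 679 counts in Tbx18, while the groups overlap in the other 7 panels.

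Of the period genes, whose products repress BMAL1 activity, Per2 was lower and Per1 and Per3 did not pass the test. Per2 was at 653, 684 and 574 counts in Tbx18 libraries and at 978, 944 and 894 in GFP libraries, with no overlap. Its mean was 637 ± 56.8 in Tbx18 and 938 ± 42.0 in GFP (SD, n = 3 each), and the limma log2 fold change was -0.56 (SE 0.10, adjusted p = 0.00130). With equal recovered reads it was -0.30 and stayed called (limma adjusted p = 0.0322), which is -0.57 relative to the median of all genes. Per1, the period gene that answers most directly to serum and hormone signals, was at 443, 435 and 520 counts in Tbx18 libraries and at 533, 467 and 581 in GFP libraries. Tbx18 replicate 3 lay within the GFP range, and the log2 fold change of -0.18 did not pass (limma adjusted p = 0.255, 95% interval -0.44 to 0.09) and was 0.088 with equal recovered reads, or -0.18 relative to the median of all genes on either scaling. Per3 was at 490, 469 and 579 counts in Tbx18 libraries and at 580, 387 and 494 in GFP libraries. The GFP range enclosed the Tbx18 range, with a log2 fold change of 0.09 (limma adjusted p = 0.663, 95% interval -0.26 to 0.43). It was -0.067 without GFP replicate 2 and -0.0020 without Tbx18 replicate 3, uncalled in both.

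The cryptochrome genes, whose products are the partners of the PER proteins in the repressor complex, were close in both groups. Cry1 was at 557, 570 and 542 counts in Tbx18 libraries and at 512, 571 and 499 in GFP libraries, a log2 fold change of 0.08 (limma adjusted p = 0.528, 95% interval -0.14 to 0.30). With libraries scaled to equal recovered reads Cry1 was called higher, at 0.34 (limma adjusted p = 0.0120), which is 0.07 relative to the median of all genes. Cry2 was at 566, 495 and 592 counts in Tbx18 libraries and at 576, 584 and 548 in GFP libraries, a log2 fold change of -0.05 (limma adjusted p = 0.715, 95% interval -0.28 to 0.18). Relative to the median of all genes Cry2 was at -0.05 both on the deposited scaling and with equal recovered reads, where its own value was 0.21.

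Dbp, the D-box activator and a direct target of CLOCK and BMAL1, was at 590.04, 598 and 679 counts in Tbx18 libraries and at 1029, 1565 and 1028 in GFP libraries. All GFP libraries were higher, GFP replicate 2 most of all. The mean was 623 ± 49.4 in Tbx18 and 1207 ± 310 in GFP (SD, n = 3 each), and the limma log2 fold change was -0.93 (SE 0.16, adjusted p = 0.00116). Without GFP replicate 2 it was -0.73, with limma adjusted p = 0.000998. Nr1d1, the nuclear receptor that represses Arntl, was at 577, 525 and 560.005 counts in Tbx18 libraries and at 464, 676 and 622 in GFP libraries. The GFP libraries lay on both sides of the Tbx18 libraries, and the log2 fold change was -0.07 (limma adjusted p = 0.717, 95% interval -0.38 to 0.25). It was 0.20 with equal recovered reads, which is -0.07 relative to the median of all genes, and 0.04 without GFP replicate 2, uncalled in both. In the RefSeq annotation Nr1d1 overlaps Thra, and whether the authors counted by strand is not given in the sources used here. Reads of that pair could therefore be mixed. The same limit touches Npas2, Per2, Clock, Cry1 and Cry2, which overlap uncharacterised loci in that annotation.

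In the limma fit 3 of the 10 clock genes were called lower, where 23.5% of the 11230 genes tested were lower. None was called higher, where 22.5% of all genes tested were higher, and none was higher at an unadjusted p under 0.05 by limma, edgeR or DESeq2. In either direction 46.0% of all genes tested were called, and 3 of 10 is below that background. The groups did not overlap for the same 3 genes, where 57.2% of all genes tested had groups apart and 28.6% had Tbx18 below GFP in every library. The median log2 fold change of the 10 genes was -0.06 and the median absolute value 0.13, beside 0.01 and 0.33 over all genes tested. Npas2, Per2 and Dbp were called lower under all 19 alternatives, with log2 fold changes from -1.24 to -0.68, from -0.61 to -0.30 and from -1.03 to -0.66.

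**Figure D2:**
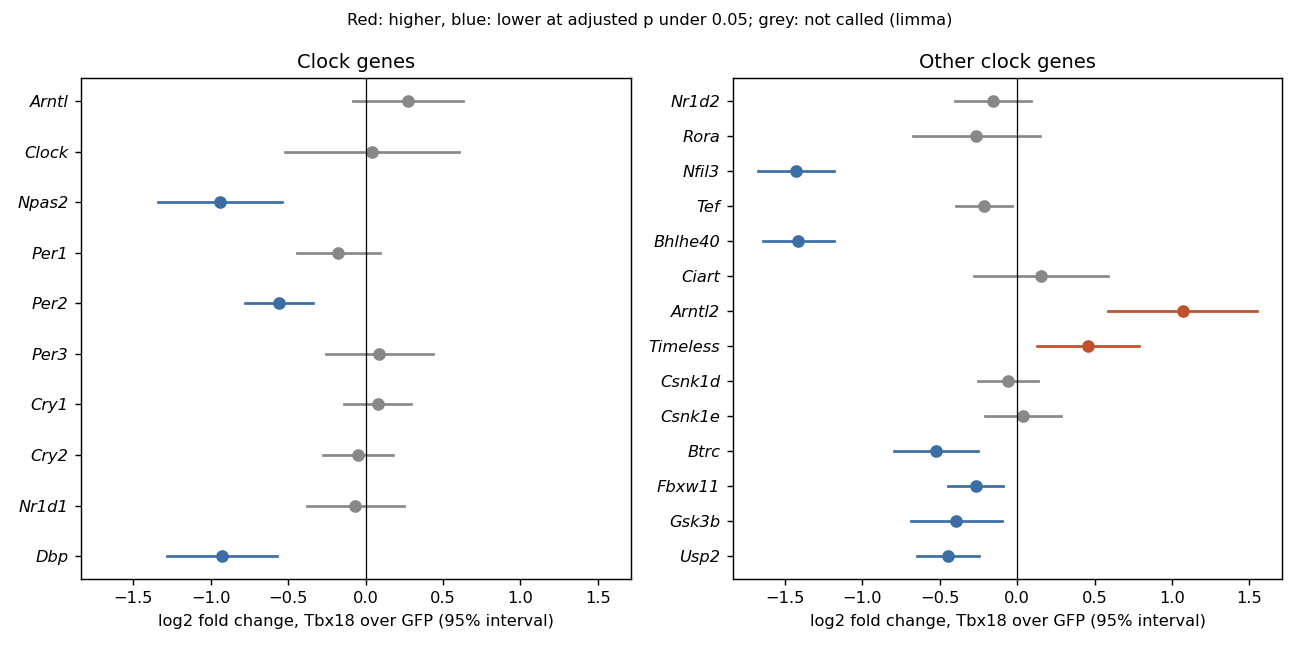
Log2 fold change, Tbx18 over GFP, with its 95% interval from limma for the 10 clock genes on the left and other tested clock genes on the right, red where called higher, blue where called lower and grey where not called. On the left only Npas2, Per2 and Dbp lie below 0 with their intervals, and on the right Nfil3 and Bhlhe40 lie lowest, at -1.43 and -1.41.

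Ratios of clock genes within a library do not depend on how libraries are scaled. They are not per transcript length, so only the difference between groups carries meaning, and with 3 against 3 libraries no exact permutation test can go below 0.10, so none is given. The pairs were chosen after the values were seen, and each ratio with groups apart has Npas2, Per2 or Dbp on top, so these ratios restate those 3 differences free of scaling. Npas2 over Arntl was 0.178, 0.114 and 0.146 in Tbx18 libraries and 0.260, 0.459 and 0.317 in GFP libraries, so the balance of these partners was lower in every Tbx18 library. Npas2 over Clock was 0.419, 0.328 and 0.288 in Tbx18 libraries and 0.478, 1.22 and 0.536 in GFP libraries, also apart.

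Dbp over Nr1d1, both outputs of the BMAL1 complex, was 1.02, 1.14 and 1.21 in Tbx18 libraries and 2.22, 2.32 and 1.65 in GFP libraries. These groups were apart. Dbp over Arntl was 1.15, 0.997 and 1.34 in Tbx18 libraries and 1.79, 4.18 and 2.50 in GFP libraries. Per2 over Per3 was 1.33, 1.46 and 0.991 in Tbx18 libraries and 1.69, 2.44 and 1.81 in GFP libraries. The groups were apart for both of these ratios. They overlapped for Per2 over Per1, with means of 1.38 in Tbx18 and 1.80 in GFP, for Nr1d1 over Arntl, with 1.04 in Tbx18 and 1.38 in GFP, and for Cry1 over Cry2, with 1.02 in Tbx18 and 0.926 in GFP.

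**Figure D3:**
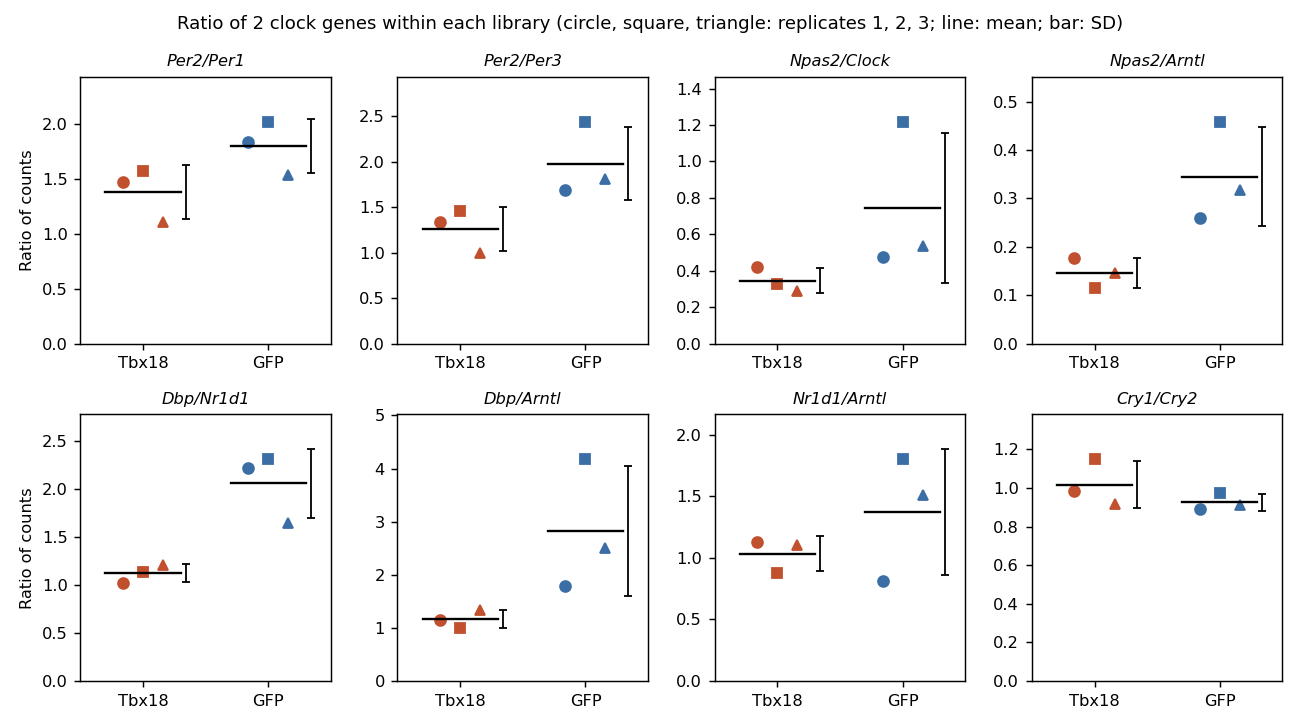
Ratio of the normalized counts of 2 clock genes within each library, Tbx18 left and GFP right in each panel, symbols for replicates 1 to 3, a line at the mean and a bar for the SD over 3 libraries. The groups are apart in the panels of Per2/Per3, Npas2/Clock, Npas2/Arntl, Dbp/Nr1d1 and Dbp/Arntl, and GFP replicate 2 is the highest point of each of them, at 4.18 for Dbp/Arntl.

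The clock genes shared the wider spread that the GFP libraries showed over all genes. The median SD of log2 values over the 10 genes was 0.14 in Tbx18 and 0.24 in GFP, beside 0.10 and 0.17 over all genes tested, and the SD was wider in GFP for 7 of the 10 genes, beside 74.0% of all genes tested. GFP replicate 2 was the highest GFP library for 5 genes (Npas2, Cry1, Cry2, Dbp and Nr1d1) and the lowest for 4 (Arntl, Clock, Per1 and Per3). GFP replicate 1 was the highest for 4 and the lowest for 1, and GFP replicate 3 the highest for 1 and the lowest for 5. The Clock fold change had no stable sign: it was -0.28 without GFP replicate 2 (limma adjusted p = 0.197), -0.05 without Tbx18 replicate 3, and also negative after quantile normalization and with edgeR and DESeq2, uncalled in each.

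Of 20 other genes of the clock loops and of clock protein turnover, 16 were matched and 15 tested; 2 were called higher and 6 lower, beside 22.5% and 23.5% of all genes tested, and the list's median log2 fold change was -0.21. Nfil3, the D-box repressor opposite Dbp, was at 409, 475 and 423 counts in Tbx18 libraries and at 1047, 1177 and 1306 in GFP libraries. Its log2 fold change was -1.43 (SE 0.11, limma adjusted p = 1.60e-05), so the D-box activator and repressor genes were both lower. Bhlhe40 (DEC1), an E-box repressor, was at 1703, 1998 and 2023 counts in Tbx18 libraries and at 5073, 5602 and 4585 in GFP libraries, a log2 fold change of -1.41 (SE 0.10, limma adjusted p = 1.26e-05). Arntl2 (BMAL2), the relative of Arntl, was the gene with the largest rise of the list, at 82.8, 86.1 and 86.9 counts in Tbx18 libraries and 51.1, 32.1 and 39.1 in GFP libraries. Its log2 fold change was 1.07 (SE 0.21, limma adjusted p = 0.00288), or 0.66 after quantile normalization.

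The remaining calls of this list were smaller. Timeless, a replication fork protein with a debated clock role in mammals, averaged 585 ± 7.39 counts in Tbx18 and 432 ± 92.5 in GFP (SD, n = 3 each). Its limma log2 fold change was 0.46 (adjusted p = 0.0289). It was called without GFP replicate 1 but with none of the other libraries left out (limma adjusted p from 0.0526 to 0.0833). Nor was it called without an intensity trend (limma adjusted p = 0.0580). Without GFP replicate 2 its log2 fold change was 0.29. Btrc, a ubiquitin ligase subunit that marks PER proteins for destruction, averaged 610 ± 19.04 in Tbx18 and 885 ± 142 in GFP (limma log2 fold change -0.52, adjusted p = 0.00623). Usp2, a rhythmic deubiquitinase, averaged 597 ± 16.5 in Tbx18 and 816 ± 43.7 in GFP (limma log2 fold change -0.45, adjusted p = 0.00272). Fbxw11, a relative of Btrc, and Gsk3b, a kinase of clock proteins, named after their values were seen, were lower by limma log2 fold changes of -0.27 and -0.39 (adjusted p = 0.0195 and 0.0325). With equal recovered reads Btrc, Usp2, Fbxw11 and Gsk3b were not called, with limma adjusted p from 0.0804 to 0.962. Fbxw11 was also not called without Tbx18 replicate 1 or 2 (limma adjusted p = 0.0930 and 0.0647), and Gsk3b was not called without Tbx18 replicate 1 or 2 or GFP replicate 1 or 3 (limma adjusted p from 0.0636 to 0.118). Neither was called with upper-quartile scaling (limma adjusted p = 0.0684 for Fbxw11 and 0.0669 for Gsk3b) or after quantile normalization (0.169 and 0.0516). Gsk3b was also not called without an intensity trend (limma adjusted p = 0.0692).

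Nr1d2 (REV-ERB beta) and Tef, a relative of Dbp, did not pass. Nr1d2 averaged 594 ± 29.5 counts in Tbx18 and 664 ± 77.02 in GFP (limma log2 fold change -0.16, adjusted p = 0.272), and Tef averaged 1122 ± 19.3 in Tbx18 and 1303 ± 76.04 in GFP (limma log2 fold change -0.21, adjusted p = 0.0557). Without GFP replicate 1 both were called lower (limma adjusted p = 0.0461 for Nr1d2 and 0.0463 for Tef), and with equal recovered reads neither was called. The casein kinase genes Csnk1d and Csnk1e, whose products phosphorylate PER proteins, had limma log2 fold changes of -0.06 and 0.04 and were not called. Rora, an activator at ROR elements, and Ciart, an inhibitor of the BMAL1 complex, were not called either, at -0.26 and 0.15. Rorb was under the minimum mean of 10 counts and was not tested.

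Of 12 genes known for clock-driven rhythms in heart or other tissues, 11 were matched and 9 tested; 2 were lower, none was higher at an unadjusted p under 0.05 by limma, edgeR or DESeq2, and the median log2 fold change was -0.15. A share of 2 in 9 is near the 23.5% of all genes tested that were lower. Kcnip2 and Ucp3 were under the minimum mean of 10 counts. Nampt, the rate-limiting enzyme of NAD salvage and a target of CLOCK and BMAL1, was at 824, 993 and 1057 counts in Tbx18 libraries and at 2211, 2907 and 2568 in GFP libraries. The groups were well apart, with a limma log2 fold change of -1.42 (SE 0.12, adjusted p = 3.24e-05). Klf10, a rhythmic zinc finger repressor, averaged 1033 ± 92.8 in Tbx18 and 1522 ± 358 in GFP (limma log2 fold change -0.53, adjusted p = 0.0228); it was not called without GFP replicate 2, without GFP replicate 3, without Tbx18 replicate 3, with equal recovered reads or without an intensity trend (adjusted p from 0.0605 to 0.157).

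Glucocorticoid hormone resets clocks in peripheral tissues, and of 8 genes induced by its receptor 1 was higher and 3 were lower, beside 22.5% and 23.5% of all genes tested, and the median log2 fold change was -0.26. This list holds Per1, and Tsc22d3 and Klf9 of the output list. Fkbp5, a co-chaperone of the receptor, was at 579, 628 and 581 counts in Tbx18 libraries and at 478, 336 and 321 in GFP libraries (limma log2 fold change 0.68, SE 0.15, adjusted p = 0.00484). Sgk1, a kinase of salt transport, averaged 455 ± 19.3 in Tbx18 and 751 ± 85.3 in GFP (limma log2 fold change -0.72, adjusted p = 0.000611). Zbtb16, a zinc finger repressor, was at 6.44, 6.15 and 11.4 counts in Tbx18 libraries and at 29.8, 23.5 and 32.2 in GFP libraries (limma log2 fold change -1.75, adjusted p = 0.00277; -2.88 after quantile normalization). Ddit4, an inhibitor of the mTOR pathway, averaged 1450 ± 383 in Tbx18 and 2152 ± 448 in GFP (limma log2 fold change -0.58, adjusted p = 0.0353); its call was lost without GFP replicate 1, without GFP replicate 2, without Tbx18 replicate 1 and without Tbx18 replicate 2 (adjusted p from 0.0695 to 0.127), and also with equal recovered reads (0.208), with upper-quartile scaling, after quantile normalization and without an intensity trend (0.0597 to 0.0888).

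Measured as the root mean square distance between log2 values centred on each gene's mean over the 6 libraries, the genes outside the 10 closest to Arntl were Chrdl1, Fancc and Rfc3, at 0.0414, 0.0657 and 0.0675. Among the closest to Dbp were Agpat9 and Celf4, at 0.0510 and 0.0901.

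**Figure D4:**
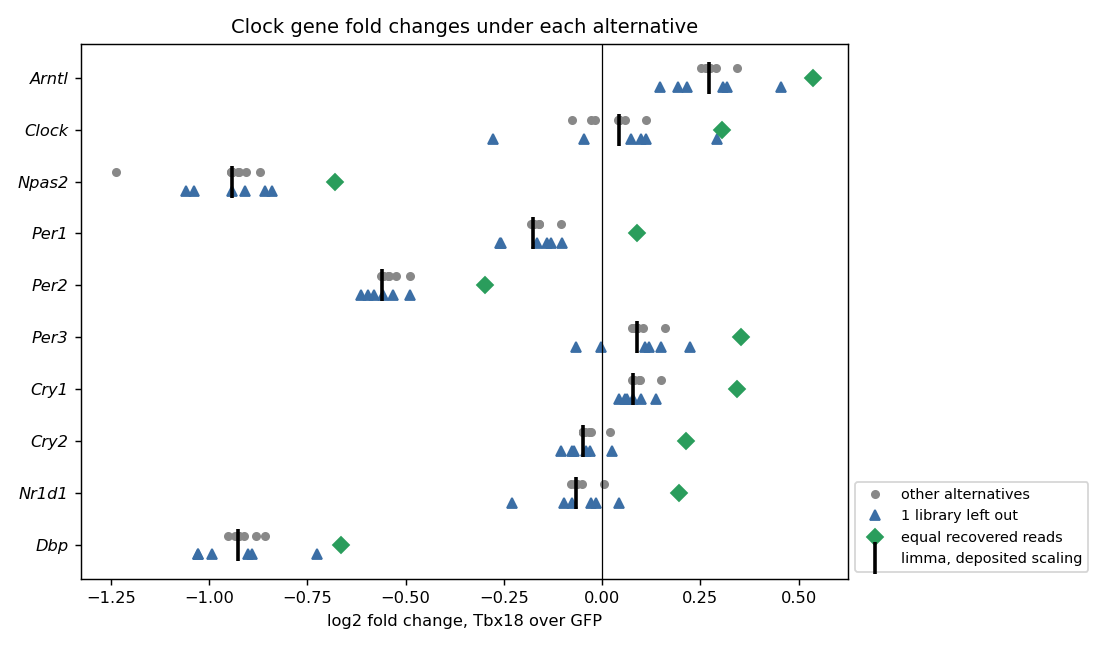
Log2 fold change, Tbx18 over GFP, of each clock gene under 19 alternatives: black bars mark limma on the deposited scaling, green diamonds libraries scaled to equal recovered reads, blue triangles fits with 1 library left out, and grey circles the other alternatives. Npas2, Per2 and Dbp stay below 0 under every alternative shown, at most -0.68, -0.30 and -0.66, while Clock, Per1, Per3, Cry2 and Nr1d1 have points on both sides of 0.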

How the data were processed

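Gene expression was measured by stranded mRNA sequencing of 3 Tbx18 and 3 GFP libraries, made from 100 ng of total RNA and read as 101 bp pairs, per the labels' protocols. Tools in the submitters' processing notes, listed with no roles, are DESeq2 1.10.1, HTSeq, STAR 2.4.0g1 and bcl2fastq 2.17.1.14. The genome build, annotation and strand of the counting were not given in the sources used here. The authors deposited a signal per gene under a name that gives DESeq2-normalized counts, meaning read counts over 1 size factor per library. All values (100%) were whole multiples of their column's smallest step within 0.01, which recovered the reads. Of 17089 genes, 2912 were at 0 throughout.

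From these values log2(normalized count + 1) was fitted in R 4.3.3 by limma 3.58.1, using its intensity trend and no block, for 11230 genes with a mean of at least 10. Benjamini-Hochberg adjusted p under 0.05 over all genes made a call. Folds are ratios of means, and log2 fold changes include the pseudocount of 1, which understates those of low genes. Alternatives were other scalings, pseudocounts 0.5 and 5, other filters, other limma settings, a replicate block, leaving out each library, and, on the recovered reads, DESeq2 1.42.0 and edgeR 4.0.16; the tests were checked on simulated data. The clock genes, lists and naming rule (all 10 genes, called members of 3 further lists up to the 6 largest, Nr1d2, Tef, Hlf, Bhlhe40 and Nfil3, and the 3 genes nearest Arntl and Dbp) were chosen with earlier results of these data known. Of 87 symbols in 9 lists, 5 were not matched and are not analysed here, Hlf among them; Ciart and Adgre1 were matched by older symbols. Some genes that the lists or the naming rule took are not reported here.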

Additional observations from a re-analysis of the deposited data

How the results depend on the processing

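Npas2, Per2 and Dbp were called lower under all 19 alternatives, so the count of clock genes called lower was 3 throughout. The scaling that moved most was equal recovered reads: there 2 clock genes were called higher (Arntl at 0.54 and Cry1 at 0.34), the median log2 fold change of the clock genes was 0.21, and 4777 genes were higher and 1350 lower of all tested, where the deposited scaling gave 2525 and 2639. With that scaling 2 other clock genes were lower, 2 clock output genes were higher and 1 lower, and the values of Per1 (0.088), Cry2 (0.21), Nr1d1 (0.20), Nr1d2 (0.11) and Tef (0.049) were above 0, uncalled. This scaling shifts all genes nearly alike, and it moved the median of all genes from 0.01 to 0.27. Relative to that median Per1, Cry2 and Nr1d1 were at -0.18, -0.05 and -0.07, as on the deposited scaling. With upper-quartile scaling Cry2 was at 0.021 and Nr1d1 at 0.0036. After quantile normalization 1 clock output gene was called higher and Clock was at -0.076; Clock was at -0.018 with edgeR and -0.027 with DESeq2. Without an intensity trend 1 other clock gene was higher and 1 clock output gene lower.

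With 1 library left out, 0 to 1 clock genes, and 1 to 2 other clock genes, were called higher, 1 to 2 clock output genes were called lower, and the median of the clock genes ran from -0.16 to -0.0015. Log2 fold changes ran from 0.15 to 0.46 for Arntl, from -0.28 to 0.29 for Clock, from -0.067 to 0.22 for Per3, from -0.10 to 0.026 for Cry2 and from -0.23 to 0.043 for Nr1d1. The cause of these shifts was not tested. The libraries share only replicate numbers: deviations of same-numbered libraries from their group means correlated at -0.0047, 0.15 and 0.016, and not every library correlated best with its own number. A replicate block left 3 clock genes lower and 0 higher, with 2527 genes higher and 2628 lower of all tested. Npas2 rested on the fewest reads of the clock genes, 67 in 1 library.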
